A study of Rattus norvegicus with 54 samples.

Results

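The genes described here are the 33 glutamate receptor and postsynaptic scaffold genes of the rat nucleus accumbens, chosen by name from the 45785 rows of the count table that carry a gene name. All 33 were matched, and all 33 passed the filter on low counts in each of the 3 fits described below. They comprise the AMPA subunit genes Gria1 to Gria4, the kainate subunit genes Grik1 to Grik5, the NMDA subunit genes Grin1, Grin2a to Grin2d, Grin3a and Grin3b, and the delta receptor gene Grid1. The metabotropic receptor genes Grm2, Grm3, Grm4, Grm5, Grm7 and Grm8, the membrane-associated guanylate kinase genes Dlg1 to Dlg4, and the Shank and Homer scaffold genes, 3 of each, complete the set.

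Glutamate opens AMPA, kainate and NMDA receptors, which are ion channels built from several subunits, and it also acts on metabotropic receptors, which signal through G proteins. At excitatory synapses the guanylate kinase scaffolds (PSD-95 is the product of Dlg4) anchor the channels, while Shank and Homer proteins join them to metabotropic receptors and to the cytoskeleton. In the nucleus accumbens, the ventral striatal region of reward learning, these synapses carry cortical, hippocampal, amygdalar and thalamic input onto medium spiny neurons, its principal cells.

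Bulk RNA was sequenced from 54 nucleus accumbens libraries of male and female Long Evans rats. The prenatal treatment was ethanol (PAE) or, in the other groups, a free-choice liquid diet (FCL). The adolescent treatment was alcohol (AAE) or water (VEH). Adolescents were collected at postnatal day 42 (P42), 24 h after their last adolescent exposure, and adults at P90 with no challenge. FCL-VEH rats are called controls below, so the controls too had the liquid diet prenatally and the water treatment in adolescence. The P42 males gave 9 control and 9 PAE-VEH libraries, and the P42 females 7 and 4. The P90 males gave 6 control and 6 PAE-AAE libraries, and the P90 females 8 and 5. In the P90 groups the prenatal and the adolescent exposure came together and cannot be told apart. No pair-fed group is analysed here, and the labels give no litter.

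Each library held between 59.1 and 103.8 M counts. The sex markers Xist and the Y-linked Kdm5d, Ddx3y and Eif2s3y went against the label in 3 libraries, which are female control replicate 5, male control replicate 8 and male PAE-VEH replicate 5, all at P42. They were kept as labelled. All 12 markers of medium spiny neurons were detected, and their summed level ran from 2765 to 9981 CPM over the 54 libraries, where CPM is a gene's count scaled to a fixed library total. The 8 markers of cortical excitatory neurons, which belong to a neighbouring tissue, summed to between 41.1 and 1521 CPM. In bulk tissue, fewer cells of a type and less RNA per cell cannot be told apart.

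Levels were compared between genes as FPKM, which scales a gene's reads by its listed length and by the size of the library. Ranks and family shares therefore depend on the listed lengths, which run from 3.06 kb for Grik2 to 39.3 kb for Grin2b. The scaffold gene Dlg4 was the most abundant of the 33, with a median of 176.7 FPKM over the 54 libraries (range 124.9 to 215.6), and it exceeded the next gene, Grin1, in 54 of 54 libraries. Grin1 encodes the subunit that every NMDA receptor contains, and its median was 120.6 FPKM (93.2 to 149.3). Gria2, whose subunit limits the calcium permeability of AMPA receptors, followed at 110.2 FPKM (76.7 to 130.2), and Gria1 at 92.98 FPKM (65.0 to 107.7). Grin1 exceeded Gria2 in 47 of 54 libraries, and Gria2 exceeded Gria1 in 54 of 54. In CPM, which does not divide by length, the medians were 760 for Gria2, 573 for Gria1 and 524 for Grin1, another order. At the other end stood Grm2, a presynaptic autoreceptor, with a median of 0.505 FPKM (0.130 to 1.18).

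**Figure D1:**
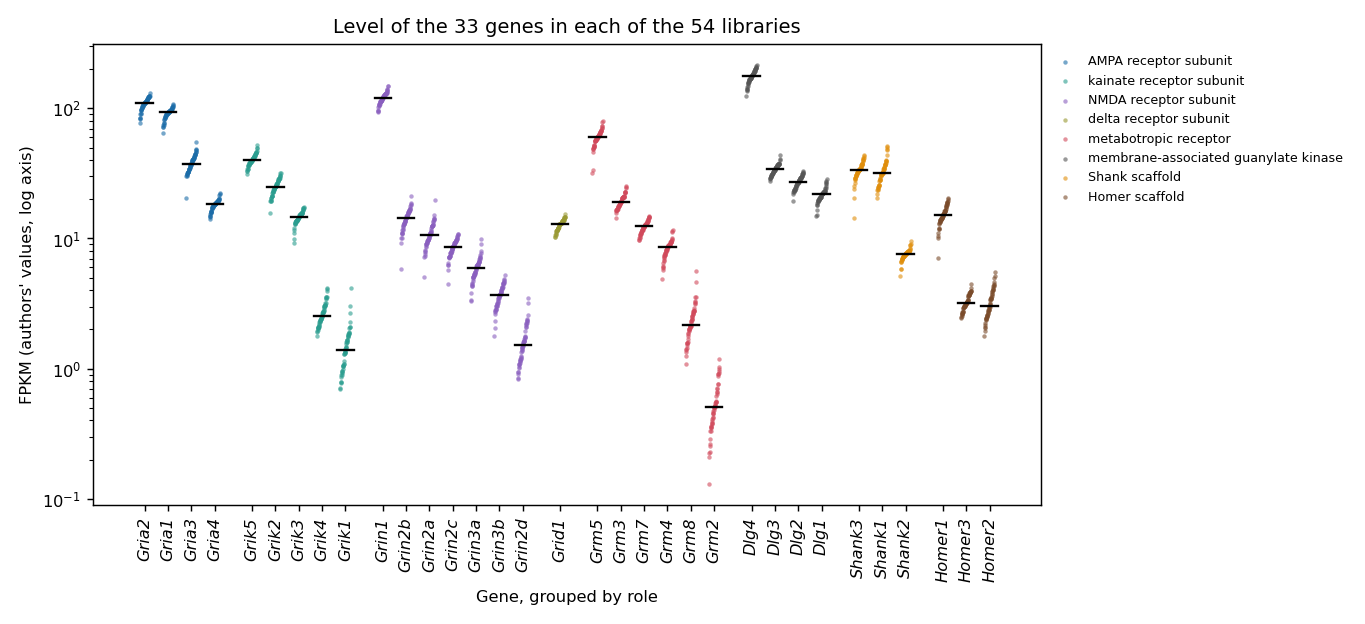
Level of each gene in FPKM on a log axis, with 1 point per library (54 per gene, sorted by value from left to right) and a bar at the median; genes are grouped by role. Dlg4 has the highest median at 176.7 FPKM and Grm2 the lowest at 0.505 FPKM.

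Within the AMPA family, Gria2 took a median of 42.4% of the summed FPKM (39.8% to 44.6%), Gria1 35.8%, Gria3 14.98% and Gria4 6.97%. The family was therefore made up mostly of Gria1 and Gria2 in every library. Among kainate subunits Grik5, a subunit that needs a partner to form a channel, took 47.7% (41.5% to 59.6%). Grik2, which can form channels alone, took 29.9% and Grik3 17.1%. Grik4 and Grik1 were minor, at 2.98% and 1.65%.

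Grin1 took 72.8% of the NMDA family (70.1% to 77.3%). Of the subunits that partner it, Grin2b, the form typical of young synapses, took 8.65% and Grin2a, the form that increases with maturation, took 6.36%. Grin2c took 5.17%, Grin3a 3.48%, Grin3b 2.23% and Grin2d 0.884%. The listed lengths are 39.3 kb for Grin2b and 15.6 kb for Grin2a. In CPM the medians of these 2 were 569 and 167, the same order with a wider gap. Grin1 had a median of 524 CPM, below that of Grin2b, so its lead in the family depends on the listed lengths.

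Among metabotropic receptors Grm5, which couples to Gq and is postsynaptic, led with 58.3% of the summed FPKM (42.9% to 63.2%). Grm3, found on glia and neurons, took 18.7%, and the presynaptic receptors Grm7 and Grm4 took 11.9% and 8.25%. Grm8 took 2.17% and Grm2 0.491%. The single delta receptor gene measured, Grid1, had a median of 13.01 FPKM.

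Of the guanylate kinases Dlg4 took 68.1%, Dlg3 13.1%, Dlg2 10.6% and Dlg1 8.23%. In CPM Dlg4 also led, but Dlg2 (median 512) and Dlg1 (234) stood above Dlg3 (209). Shank3 and Shank1 took 45.2% and 44.4% of the Shank family, and Shank3 exceeded Shank1 in 27 of 54 libraries, so their order was not separated. Shank2 took 10.2%. Homer1 took 69.5% of its family, with Homer3 at 15.1% and Homer2 at 14.4%, and Homer3 exceeded Homer2 in 28 of 54 libraries.

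Spread between libraries of a group differed widely between members. The pooled within-group SD of log2 CPM had a median of 0.22 over the 33 genes, against 0.45 over the 26079 genes that passed the same filter in the 8 groups. Grin1 (0.13), Grik5 (0.13), Dlg3 (0.14) and Grid1 (0.14) varied least. Grm2 (0.65), Grik1 (0.55), Grin2d (0.50) and Grm8 (0.49) varied most, and they also had the lowest median FPKM of the 33. The 26079 genes were not matched to the members by level.

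Differences between groups were tested with edgeR's quasi-likelihood F test, and called where the Benjamini-Hochberg adjusted p over all genes tested was under 0.05. They are given as log2 differences with their standard error (SE), and CPM values are scaled by TMM library size factors and given with the standard deviation (SD).

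The age comparison asked how the controls differed between P42 and P90. In control males, 2 of the 33 genes passed, and both fell. They were Grik2 and Grin1. This is 6.06% of the members, beside 2.53% of all 24065 genes tested. DESeq2 called 5 members, all lower, which adds Grik3, Grik5 and Grm4, beside 6.53% of the 17998 genes it gave an adjusted p. Voom with quality weights, a limma method, called the same 2 as edgeR, beside 1.67% of all genes. Of the 33 genes, 28 were lower at P90, with a median difference of -0.13, against -0.0013 over all genes.

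Grik2, a pore-forming kainate subunit (chromosome 20, 53717564 to 54415283, minus strand), stood in P42 males at 76.8, 96.1, 83.5, 81.9, 78.97, 78.8, 93.2, 88.3 and 90.2 CPM. In P90 males it stood at 74.8, 69.5, 59.7, 60.4, 73.2 and 63.0 CPM. The groups did not overlap, since the highest adult library lay below the lowest adolescent library. This held for 1 of the 33 members and for 0.632% of all genes tested. Grik2 fell by 0.35 ± 0.072 (log2, SE), from 85.3 ± 6.90 CPM (SD, n = 9) to 66.8 ± 6.60 CPM (n = 6), with an edgeR adjusted p of 0.00834. The call held in 15 of 15 fits that each left out 1 library of these groups, with adjusted p between 0.00456 and 0.0397.

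Grin1 (chromosome 3, 28501836 to 28528754, minus strand) stood in P42 males at 576, 618, 541, 565, 544, 491, 608, 561 and 578 CPM. In P90 males it stood at 546, 455, 418, 425, 498 and 407 CPM. Every adult library lay below the adolescent median of 565 CPM, but the ranges overlapped. Grin1 fell by 0.30 ± 0.072, from 565 ± 37.98 CPM (n = 9) to 458 ± 54.003 CPM (n = 6), with an edgeR adjusted p of 0.0232. This call was lost, with differences of -0.26, -0.28 and -0.27, when male control replicate 3, 4 or 6 at P90 was left out, and it held in the other 12 of 15 such fits. Replicate 6, an outlying library of this fit, is also the one with Xist above Kdm5d that the sex check did not count. Without the libraries that went against their sex label the differences of Grik2 and Grin1 were -0.33 and -0.29, and both passed.

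**Figure D2:**
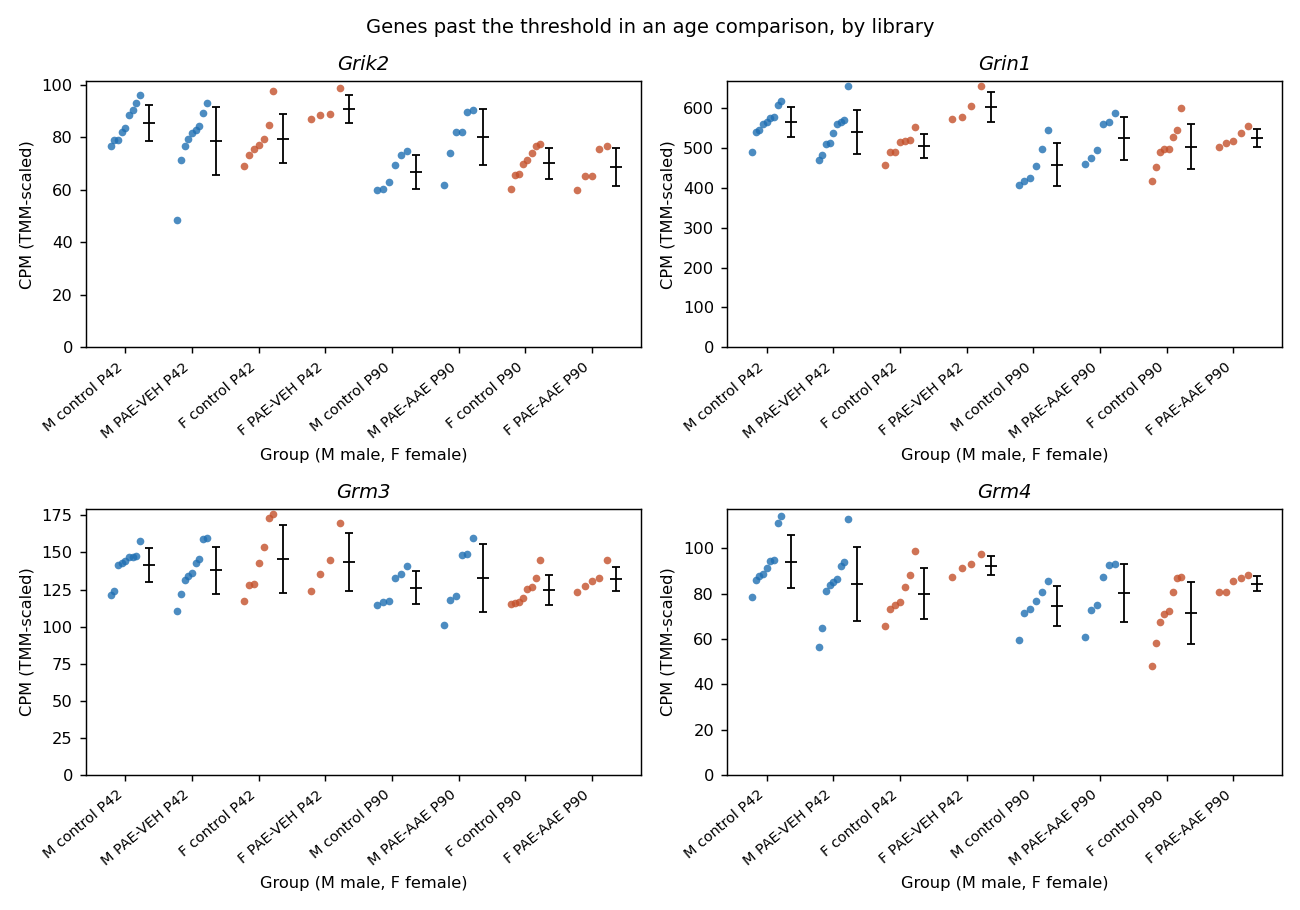
CPM of Grik2, Grin1, Grm3 and Grm4 in each library of the 8 groups (blue males, red females, points sorted by value within a group), with the mean and SD beside them in black. In control males the P90 values of Grik2, 59.7 to 74.8 CPM, lie below the P42 values, 76.8 to 96.1 CPM.

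RefSeq's promoter table for the assembly GRCr8 held a window for 19 of the 33 genes, with Grik2 and Grin1 among them. The 250 bases before the annotated start of these genes are printed because these are the members that fell with age in males, on the gene's own strand and 5′ to 3′. Grik2 lies at chr20:54415284-54415533 (minus strand) and Grin1 at chr3:28528755-28529004 (minus strand).
Grik2: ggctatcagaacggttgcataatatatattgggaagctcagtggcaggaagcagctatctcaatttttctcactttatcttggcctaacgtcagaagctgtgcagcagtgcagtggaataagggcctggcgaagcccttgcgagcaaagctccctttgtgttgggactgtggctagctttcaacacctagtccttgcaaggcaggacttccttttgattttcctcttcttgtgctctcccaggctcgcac
Grin1: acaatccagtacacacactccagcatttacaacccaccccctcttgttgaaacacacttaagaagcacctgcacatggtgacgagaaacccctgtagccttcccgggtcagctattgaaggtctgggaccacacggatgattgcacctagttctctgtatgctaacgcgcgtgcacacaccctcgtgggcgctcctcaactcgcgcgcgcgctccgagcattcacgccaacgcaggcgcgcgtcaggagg
Matches of 5 motifs, searched on both strands, would stand in capitals, and neither window holds any. The motifs were the GC box GGGCGG, the TATA box TATAAA, the cyclic AMP response element TGACGTCA, the EGR site GCGTGGGCG and the E box CACGTG. They occur in 30.5%, 12.9%, 1.59%, 0.478% and 5.59% of all 33469 windows of this length. Among the 19 member windows the GC box occurs in 3 (Grik3, Grik5 and Grm7), the TATA box in 1 (Homer1) and the E box in 1 (Dlg1). The GC content is 49.6% for Grik2 and 57.6% for Grin1, against a median of 51.2% over all windows.

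Other tissue signals moved between the control males of the 2 ages. All 8 choroid plexus markers were higher at P90, with a median difference of 0.96 and summed levels of 71.2 to 3788 CPM against 21.8 to 1822 CPM at P42. All 7 astrocyte markers were higher too, with a median of 0.36 and summed levels of 2040 to 3414 CPM against 1874 to 2379 CPM, and 2 of the 7 passed. No marker of either list was at 0 throughout a group. Of the 12 medium spiny neuron markers 2 were higher at P90 and the others lower, with a median of -0.12, and none passed. Within groups, over the 54 libraries, Grik2 and Grin1 had a Pearson's r of 0.51 and 0.62 with the score of that list. The part of the spiny neuron markers alone in the age difference of these genes was not tested. With the scores of neighbouring tissues as covariates the difference of Grik2 was -0.28 and that of Grin1 -0.21, and with the scores of medium spiny neurons, oligodendrocytes and astrocytes they were -0.19 and -0.20. Neither gene passed in either fit, where the adjusted p reached 0.387 for Grik2 and 0.311 for Grin1.

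Among the other genes of the pathway in males, Nlgn3, a neuroligin that bridges the synaptic cleft, was the 1 of 18 postsynaptic density partners that passed. It fell by 0.30 ± 0.055 (edgeR adjusted p 0.00353), with no overlap between the groups. The call was lost with the neighbouring tissue scores as covariates (-0.26, adjusted p 0.0663). None of the 14 auxiliary subunits of AMPA and kainate receptors passed, with 2 at an unadjusted p under 0.05 (17.6% of all genes), both lower. The smallest p there was that of Cacng4, a transmembrane AMPA receptor regulator, with a difference of -0.27. None of the 9 genes of glutamate transport and metabolism passed in males, with 1 higher and 2 lower at an unadjusted p under 0.05, and Slc1a3, a glial glutamate transporter, had the smallest p with a difference of 0.17.

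In control females, 0 of the 33 genes passed with edgeR, beside 0.42% of all genes. At an unadjusted p under 0.05, 3 were higher and 2 lower, where 15.3% of all genes were at that level. DESeq2 called 0, beside 1.85% of the genes it gave an adjusted p, and voom called 1, Shank1, beside 1.03% of all genes. The smallest p values belonged to Shank1, a scaffold of the spine head, with a difference of 0.38 ± 0.11, to Grm7 with 0.23 ± 0.072, and to Grm3 with -0.22 ± 0.076 (adjusted p 0.129, 0.153 and 0.179). In females 19 of 33 genes were higher at P90, with a median difference of 0.01.

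Shank1 stood at 383 to 611 CPM in the 8 adult control females, with a median of 430, and at 296 to 408 CPM in the 7 adolescent ones, with a median of 333. All 8 adult libraries lay above the adolescent median. The cortical excitatory markers were higher in adult control females in 8 of 8 genes, with a median difference of 1.06 and summed levels of 45.2 to 817 CPM against 43.1 to 300 CPM (a score of the same list is related to Shank1 below). The score of this list served as a covariate only together with the septal and pallidal and the choroid plexus scores. The part of the cortical markers alone in the difference of Shank1 was not tested.

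Grik2 in control females stood at 77.1, 97.4, 79.3, 69.2, 73.4, 75.4 and 84.7 CPM at P42 and at 66.2, 71.4, 73.9, 76.5, 60.3, 77.6, 69.6 and 65.6 CPM at P90. Of the 8 adult libraries, 7 lay below the adolescent median, and the ranges overlapped. The difference was -0.18 ± 0.070 with an adjusted p of 0.228. The female difference minus the male one was 0.17 ± 0.10 for Grik2 (edgeR adjusted p 0.668), so that the sexes were not shown to differ for this gene.

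Over the mean of the sexes 3 of the 33 genes passed, all lower at P90. They are 9.09% of the members, beside 7.18% of all genes. DESeq2 called these 3 and Grin1, all lower, beside 12.1% of the genes it gave an adjusted p, and voom called Grik2 and Grm3 lower and Shank1 higher, beside 7.58% of all genes. Grik2 fell by 0.27 ± 0.050 (edgeR adjusted p 0.00185), and this call held in 30 of 30 fits without 1 library. It also held with the neighbouring tissue scores as covariates (-0.22, adjusted p 0.013), and it was lost with the 3 cell type scores (-0.14, adjusted p 0.207). Grm3, a receptor coupled to Gi and present on astrocytes (chromosome 4, 25319218 to 25600721), fell by 0.19 ± 0.055 (adjusted p 0.0301). Grm4, a presynaptic receptor coupled to Gi (chromosome 20, 5486024 to 5574668), fell by 0.25 ± 0.076 (adjusted p 0.0441).

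Grm3 in males ran from 121.3 to 158.0 CPM at P42, with a median of 144.1, and stood at 116.4, 135.5, 114.7, 132.8, 117.6 and 141.0 CPM at P90. In females it stood at 173.4, 153.9, 175.7, 117.1, 143.2, 128.7 and 127.9 CPM at P42 and ran from 114.98 to 144.8 CPM at P90, with a median of 122.2. The ages overlapped in both sexes. The call was lost in 6 of 30 fits without 1 library. These lacked female control replicate 2 or 3 at P90 (-0.18 and -0.19), female control replicate 3 at P42 (-0.17), or male control replicate 1, 3 or 5 at P90 (-0.17, -0.17 and -0.18). It was also lost with the neighbouring tissue scores (-0.17) and with the 3 cell type scores (-0.03) as covariates.

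Grm4 in males ran from 78.7 to 114.2 CPM at P42, with a median of 91.4, and stood at 85.5, 59.7, 73.5, 71.4, 80.9 and 76.9 CPM at P90. In females it stood at 88.5, 99.05, 82.9, 65.6, 76.6, 74.9 and 73.1 CPM at P42 and ran from 48.01 to 87.5 CPM at P90, with a median of 71.6. The ages overlapped in both sexes. This call held in only 11 of 30 fits without 1 library, with adjusted p from 0.031 to 0.0809. It was lost with the neighbouring tissue scores (-0.20) and the cell type scores (-0.16) as covariates, without outlying libraries (-0.22), and with voom (-0.23). Without the libraries that went against their sex label the differences were -0.26 for Grm4 and -0.19 for Grm3, and neither passed. Over the mean of the sexes, 2 of 12 medium spiny neuron markers were higher at P90 and the others lower, with a median of -0.11. All 7 oligodendrocyte markers were lower, with a median of -0.33, and no marker of these 2 lists passed. Grm4 is related to the spiny neuron score below (r 0.85), and the part of those markers alone in its difference was not tested.

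In the same mean over the sexes, 2 of 9 genes of glutamate transport and metabolism passed and both rose. Glul, glutamine synthetase of astrocytes, rose by 0.29 ± 0.081 (edgeR adjusted p 0.0259) and Slc1a3 by 0.17 ± 0.049 (adjusted p 0.0306). All 7 astrocyte markers were higher in this comparison too, with a median of 0.35, and 3 of the 7 passed. Their summed levels in control females were 2058 to 3090 CPM at P90 and 1988 to 2648 CPM at P42. With the 3 cell type scores as covariates the differences were 0.13 for Glul and 0.02 for Slc1a3, and neither passed. Both calls were also lost with the neighbouring tissue scores (adjusted p 0.0642 and 0.107), without outlying libraries (0.0744 and 0.064) and without the libraries against their sex label (0.0508 and 0.0611). Nlgn3 fell by 0.17 ± 0.038 (adjusted p 0.00688) and was the 1 of 18 partners that passed. Its call was lost with the cell type scores (-0.18, adjusted p 0.0654). Of the 14 auxiliary subunits none passed, 2 were lower at an unadjusted p under 0.05 (23.8% of all genes), and Cacng4 had the smallest p (-0.20). In females alone none passed in any of the 3 lists. The smallest p belonged to Glul (0.37), Dlgap1, a scaffold that binds Shank (0.19), and Neto2, a kainate receptor auxiliary subunit (-0.22).

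The test of whether the age difference itself differed between the sexes called 0 of the 33 members, 0 by DESeq2 and voom too, beside 0% of all genes. At an unadjusted p under 0.05, 6 were higher and 0 lower, beside 8.5% of all genes. Grm7 had the smallest p, with a female difference 0.39 ± 0.10 above the male one (adjusted p 0.47). It was followed by Grin1 with 0.29 ± 0.10 (0.482) and Shank1 with 0.40 ± 0.16 (0.526). Nlgn3 (0.26) had the smallest p of the postsynaptic density partners and Shisa9, an AMPA receptor auxiliary protein (0.19), that of the auxiliary subunits, and none passed.

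**Figure D3:**
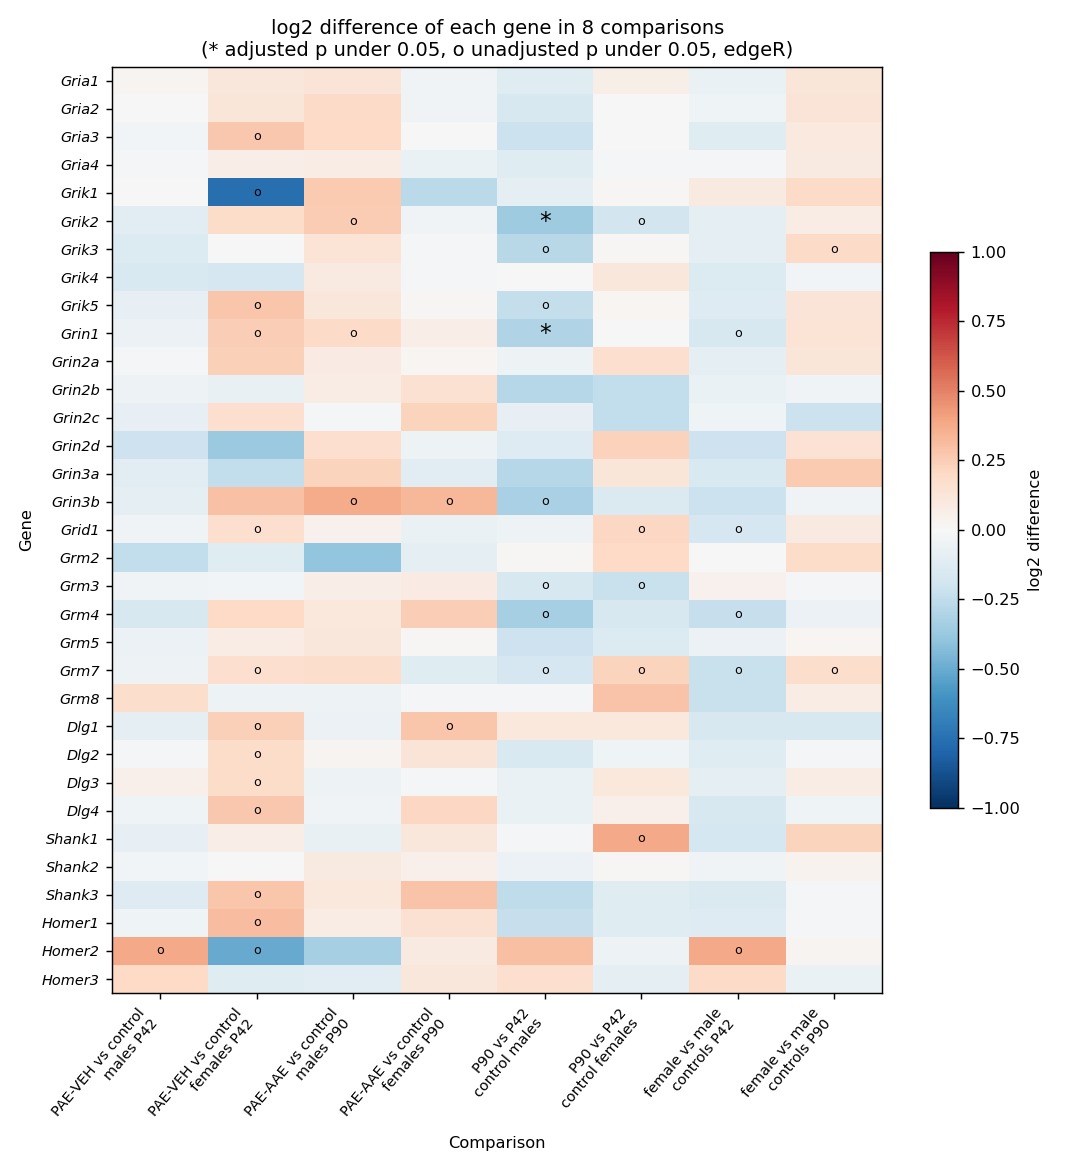
Heat map of log2 differences (edgeR) of the 33 genes, 1 row each, in 8 comparisons, 1 column each; red is higher and blue lower in the group named first, and an asterisk marks an adjusted p under 0.05. The marked cells are Grik2 (-0.35) and Grin1 (-0.30) in the age comparison of control males.

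The prenatal comparison at P42 asked whether PAE-VEH libraries differed from controls of the same age and sex, and it shares its P42 controls with the age comparison. In females 0 of the 33 genes passed with edgeR, beside 0% of all 24741 genes tested. At an unadjusted p under 0.05, 11 were higher and 2 lower, where 11.3% of all genes were at that level. DESeq2 and voom each called 1 member, Grik5, beside 0.717% of the 7953 genes given an adjusted p by DESeq2 and 0.146% of all genes with voom. Of the 33 genes 22 were higher, with a median difference of 0.12, against -0.03 over all genes.

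Grik5 (chromosome 1, 89733736 to 89795769) had the smallest p among members. Its levels were 255, 228, 221 and 230 CPM in the 4 PAE-VEH females and 186.8, 196.7, 213.9, 178.4, 190.2, 184.2 and 191.5 CPM in the 7 controls, with no overlap. The difference was 0.28 ± 0.060 with an edgeR adjusted p of 0.129. Over the alternatives the adjusted p ran from 0.0142 to 0.671.

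Dlg4 (chromosome 10, 55239397 to 55267780) stood at 1087, 1147, 1080 and 1092 CPM in PAE-VEH females and at 941, 1017, 890, 761, 906, 904 and 959 CPM in controls, and the groups did not overlap. The difference was 0.27 ± 0.078 (edgeR adjusted p 0.216). Grin1 stood at 655, 578, 572 and 606 CPM against 516, 552, 517, 457, 490, 490 and 520 CPM, also without overlap, with a difference of 0.25 ± 0.071 (adjusted p 0.216). These were the 3 members of 33 whose groups did not overlap, which was the case for 3.27% of all genes tested.

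Markers moved with these values. All 12 medium spiny neuron markers were higher in PAE-VEH females, with a median difference of 0.47 and summed levels of 7365 to 9981 CPM against 4985 to 8595 CPM. All 6 septal and pallidal markers were lower, with a median of -0.54 and summed levels of 81.4 to 103.7 CPM against 69.1 to 223 CPM. Of the 8 cortical excitatory markers, to whose score Grik5 is related below, 7 were higher, with a median of 0.70 and summed levels of 58.5 to 607 CPM against 43.1 to 300 CPM. The median summed levels were 62.2 and 63.6 CPM. Only PAE-VEH replicate 4 had a high score of this list (2.63), and the other exposed libraries lay between -0.71 and -0.56. All 8 choroid plexus markers were lower, with a median of -0.93 and summed levels of 59.7 to 631 CPM against 47.0 to 1451 CPM, and all 7 oligodendrocyte markers were lower, with a median of -0.31 and 11319 to 15310 CPM against 8179 to 30315 CPM. None of these markers passed, and none was at 0 throughout a group. With the medium spiny neuron, oligodendrocyte and astrocyte scores as covariates, 19 of the 33 genes were higher and the median difference was 0.04.

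Of the postsynaptic density partners 11 of 18 were higher and 0 lower at an unadjusted p under 0.05 in these females, with a median of 0.22, and none passed. Baiap2, an actin regulator that binds Shank, had the smallest p (0.46). Of the auxiliary subunits 5 were higher and 2 lower at that level, and Shisa6 had the smallest p (-1.03). Among transport genes 2 were lower, with the smallest p for Slc17a6, a vesicular glutamate transporter that is also on the septal and pallidal list (-2.04).

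In males at P42, 0 of the 33 genes passed with edgeR, DESeq2 or voom, beside 0%, 0.073% and 0.00404% of all genes in that order, and 1 was higher and 0 lower at an unadjusted p under 0.05, beside 8.96% of all genes. Homer2, a scaffold that binds group I metabotropic receptors, had the smallest p. It stood at 24.8 to 41.7 CPM in the 9 controls, with a median of 33.4, and at 28.9 to 55.6 CPM in the 9 PAE-VEH males, with a median of 40.4, and 8 of 9 lay above the control median. The difference was 0.38 ± 0.14 (adjusted p 0.444). Homer3 (0.20 ± 0.098) and Grik3 (-0.14 ± 0.076) followed, and 28 of the 33 genes were lower, with a median of -0.05. In the pathway lists none passed, and the smallest p belonged to Slc1a3 (0.21), Cacng2, the auxiliary subunit stargazin (-0.20), and Iqsec2, an exchange factor of the postsynaptic density (-0.08).

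Over the mean of the sexes at P42, 0 members passed with edgeR, DESeq2 or voom, beside 0%, 0.0849% and 0% of all genes, with 5 higher and 1 lower at an unadjusted p under 0.05 (10.9% of all genes). Grik5 (0.10 ± 0.038), Dlg3 (0.12 ± 0.048) and Dlg4 (0.11 ± 0.049) had the smallest p, with adjusted p of 0.372, 0.404 and 0.413. The pathway genes with the smallest p were Pick1, which binds AMPA subunits (0.15), Cnih2, an auxiliary subunit (0.15), and Slc17a6 (-0.88), and none passed.

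The female effect minus the male effect at P42 called 0 members with edgeR, beside 0% of all genes. At an unadjusted p under 0.05, 10 were higher and 1 lower, where 10.6% of all genes were at that level. DESeq2 called 2, Grik5 and Homer2, beside 0.374% of the 16585 genes it gave an adjusted p, and voom called 1, Grik5, beside 0.327% of all genes. All 12 medium spiny neuron markers were higher in this comparison, with a median of 0.46, all 7 astrocyte and all 7 oligodendrocyte markers were lower, with medians of -0.33 and -0.26, and none passed. Grik5 differed by 0.36 ± 0.075 (adjusted p 0.155), Homer2 by -0.88 ± 0.23 (0.231) and Grin1 by 0.31 ± 0.090 (0.264). Homer2 stood at 28.8, 21.2, 30.2 and 40.1 CPM in PAE-VEH females against 28.1, 40.5, 32.1, 58.5, 42.3, 48.6 and 46.1 CPM in their controls, with overlap. Without female control replicate 3 the adjusted p of Grik5 was 0.0498, the lowest of 29 fits without 1 library. Iqsec2 (0.29), Shisa6 (-1.32) and Slc7a11, the cystine and glutamate exchanger (-0.57), had the smallest p of their lists, and none passed.

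The adult comparison asked whether PAE-AAE libraries at P90 differed from controls. In males 0 of the 33 genes passed with edgeR, DESeq2 or voom, beside 0%, 0.00833% and 0.00416% of all genes (24018 with edgeR), and 3 were higher and 0 lower at an unadjusted p under 0.05 (8.74% of all genes). Grik2 stood at 62.0 to 90.4 CPM in the 6 PAE-AAE males, with a median of 81.8, and at 59.7 to 74.8 CPM in the 6 controls, with a median of 66.3. Of the 6 exposed libraries, 5 lay above the control median. The difference was 0.26 ± 0.088 (adjusted p 0.552), and 0.04 with the neighbouring tissue scores as covariates. It was followed by Grin3b, an NMDA subunit that lowers calcium entry (0.37 ± 0.16), and Grin1 (0.19 ± 0.086).

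Of the 33 genes 24 were higher in PAE-AAE males, with a median of 0.09, and with the neighbouring tissue scores as covariates 13 were higher, with a median of -0.05. Choroid plexus markers had a median difference of -0.71 in these males, with summed levels of 35.9 to 1570 CPM against 71.2 to 3788 CPM in controls. All cortical excitatory, oligodendrocyte, microglia and astrocyte markers were lower too (medians -0.62, -0.49, -0.44 and -0.27). Of the medium spiny neuron markers 9 of 12 were higher (median 0.06), as were all 4 endothelial ones (0.34). No marker of these lists passed. None of the pathway genes passed, and the smallest p belonged to Cnih2 (-0.26) among the auxiliary subunits and to Nlgn3 (0.12) among the partners.

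In adult females 0 of the 33 genes passed with edgeR, DESeq2 or voom, beside 0%, 0.0333% and 0.00416% of all genes, and 2 were higher and 0 lower at an unadjusted p under 0.05 (4.23% of all genes). Dlg1, the scaffold SAP97 (0.28 ± 0.11), Grin3b (0.33 ± 0.16) and Grm4 (0.24 ± 0.12) had the smallest p, each with an adjusted p of 1. All 5 PAE-AAE libraries lay above the control median for Dlg1 and Grm4, and 4 of 5 for Grin3b. The medium spiny neuron markers were higher in 12 of 12 genes, with a median of 0.21 and summed levels of 5576 to 7913 CPM against 2765 to 8330 CPM, and none passed. The medium spiny neuron score served as a covariate only together with the oligodendrocyte and astrocyte scores. The part of the spiny neuron markers alone in these values was not tested. In the pathway lists the smallest p belonged to Cnih2 (0.27), Slc1a2, the main glial glutamate transporter (0.21), and Dlgap3, a striatal scaffold that binds PSD-95 (0.44), and none passed.

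Over the mean of the sexes in adults 0 members passed with edgeR, DESeq2 or voom, beside 0.00416%, 0.0208% and 0.00416% of all genes, with 2 higher and 0 lower at an unadjusted p under 0.05 (3.26% of all genes). Grin3b (0.35 ± 0.12), Grin1 (0.13 ± 0.060) and Grm4 (0.17 ± 0.085) had the smallest p, each with an adjusted p of 1. The female effect minus the male effect called 0 members with edgeR, DESeq2 or voom, beside 0% of all genes, with 0 higher and 2 lower at that level (10.6% of all genes). Grik2 differed by -0.29 ± 0.12 (adjusted p 0.43), and by 0.0082 with the neighbouring tissue scores as covariates. Grm7 differed by -0.30 ± 0.13 and Dlg1 by 0.33 ± 0.16. No pathway gene passed in either test. The smallest p belonged to Shisa9 (0.13), Iqsec2 (0.13) and the vesicular transporter Slc17a8 (0.30) for the mean, and, among the auxiliary subunits and the partners, to Cnih2 (0.53) and Dlgap3 (0.50) for the difference between the sexes.

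Female and male controls were compared at each age. The P42 groups hold female control replicate 5 and male control replicate 8, which went against their sex label (Xist 0.764 and 712 CPM). This weakens the P42 test as a comparison of the sexes, and its lack of calls does not show that they are alike. At P42, 0 of the 33 genes passed with edgeR, DESeq2 or voom, beside 0%, 0.0344% and 0.0291% of all genes, and 1 was higher and 4 lower in females at an unadjusted p under 0.05 (6.08% of all genes). Grm7 (-0.22 ± 0.070), Grin1 (-0.16 ± 0.068) and Grm4 (-0.23 ± 0.10) had the smallest p, with adjusted p of 0.688, 0.785 and 0.791. All 7 female libraries lay below the male median for Grm7 and for Grin1. Of the 33 genes 29 were lower in females, with a median of -0.12. All 12 medium spiny neuron markers were lower in females too, with a median of -0.16, and none passed. Their part in the differences of the members was not tested.

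At P90, 0 members passed with edgeR, DESeq2 or voom, beside 0.0499%, 0.0665% and 0% of all genes, with 2 higher and 0 lower in females at an unadjusted p under 0.05 (5.85% of all genes). Grm7 (0.17 ± 0.075), Grik3 (0.19 ± 0.089) and Shank1 (0.22 ± 0.12) had the smallest p, each with an adjusted p of 0.818. Grm7, the presynaptic receptor with the lowest glutamate affinity, ran from 46.6 to 58.1 CPM in adult control males and from 50.5 to 68.4 CPM in adult control females. At P42 it ran from 52.8 to 65.8 CPM in males and from 44.1 to 57.9 CPM in females. In the P90 comparison all 8 cortical excitatory markers were higher in females, with a median of 0.75. All 8 choroid plexus and all 7 oligodendrocyte markers were lower, with medians of -1.60 and -0.58. Of the 12 medium spiny neuron markers 1 was higher, with a median of -0.14. None of these markers passed, and their part in the differences of the members was not tested. No pathway gene passed at either age. The smallest p at P42 belonged to Cacng3, an AMPA receptor auxiliary subunit (-0.22), Nlgn2, a neuroligin of inhibitory synapses (-0.12), and Slc7a11 (0.26), and at P90 to Cnih2 (-0.12), Nlgn3 (0.17) and Slc7a11 (0.34).

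The balance between related members was examined within each library as the log2 ratio of counts, which does not depend on library size. The 3 ratios were Grin2a over Grin2b, Gria1 over Gria2, and Dlg4 over Dlg3, the last pair being PSD-95 and SAP102. Each was compared in 6 comparisons with an exact two-sided permutation test, and p-values were adjusted over these 18 tests. Of the 18, 3 passed.

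Grin2a over Grin2b stood at -1.60, -1.54, -1.69 and -1.57 in the 4 PAE-VEH females at P42 and at -1.99, -2.07, -1.83, -1.78, -1.93, -1.90 and -1.84 in their 7 controls. The groups did not overlap. The mean was -1.60 ± 0.067 (SD, n = 4) against -1.90 ± 0.10 (n = 7), which is 0.30 higher, with an exact permutation p of 0.00303, the smallest this design allows, and an adjusted p of 0.0182. Without any 1 of the 4 exposed libraries the difference stayed between 0.28 and 0.33, but the smallest exact p then possible is 0.00833, which adjusts to 0.05 and does not pass. In males of that age the difference was 0.03 (exact permutation adjusted p 0.996). That value rests on male PAE-VEH replicate 6, whose ratio was -0.75, and without it the difference was -0.10 (exact permutation adjusted p 0.514). The difference between the sexes was not tested.

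In control females the same ratio was higher at P90 than at P42. It stood at -1.54, -1.23, -1.68, -1.56, -1.25, -1.57, -1.50 and -1.84 in the 8 adult libraries. The mean was -1.52 ± 0.20 (n = 8) against -1.90 ± 0.10 (n = 7), which is 0.38 higher, with an exact permutation p of 0.000777 and an adjusted p of 0.0140. The ranges overlapped through 1 adult library, at -1.84. In control males the difference was 0.23, from -1.89 ± 0.20 (n = 9) to -1.66 ± 0.16 (n = 6), with an exact permutation adjusted p of 0.176. Both comparisons of females use the same 7 control libraries. Without the control that went against its sex label their differences were 0.30 and 0.38, and both passed.

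The cortical excitatory marker list moved with this ratio. Over the 54 libraries, with both values taken relative to the mean of their group, Pearson's r between the ratio and the score of that list (the mean of its centred log2 CPM) was 0.67 and Spearman's rho 0.60, with permutation p of 1e-05 and 2e-05 (adjusted 7.2e-05 and 0.00016). Without the 2 libraries farthest from the median score, r was 0.59. The score ran from -0.71 to 2.63 in the 4 PAE-VEH females, with 3 of them between -0.71 and -0.56, and from -1.58 to 1.72 in their controls. The ratio of the library at 2.63, replicate 4, was -1.57, and without it the difference was 0.29. In control females at P90 the score ran from -1.66 to 2.78.

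Dlg4 over Dlg3 stood at 2.31, 2.30, 2.61, 2.19 and 2.44 in the 5 PAE-AAE females at P90 and at 2.04, 2.16, 2.11, 2.13, 2.12, 2.16, 2.22 and 2.21 in their 8 controls. Of the exposed libraries 4 lay above every control. The mean was 2.37 ± 0.16 (n = 5) against 2.14 ± 0.057 (n = 8), which is 0.23 higher, with an exact permutation p of 0.00233 and an adjusted p of 0.0182. Without any 1 of the 5 exposed libraries the difference lay between 0.17 and 0.27 and passed. In males at P90 the difference was 0.01 (exact permutation adjusted p 0.996), and the difference between the sexes was not tested. This ratio too was related to a marker score, that of medium spiny neurons, with r of 0.50 and rho of 0.38 (permutation p of 0.0003 and 0.0082, adjusted 0.0012 and 0.023), and r of 0.43 without the 2 farthest libraries. The score had a mean of 0.06 in the PAE-AAE females (-0.22 to 0.26) and of -0.25 in their controls (-1.29 to 0.35). Its part in the difference of the ratio was not tested.

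Gria1 over Gria2 did not pass in any of the 6 comparisons. Its differences ran from -0.06 in adult PAE-AAE males to 0.06 in the age comparison of control females, with exact permutation adjusted p from 0.326 to 0.996.

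**Figure D4:**
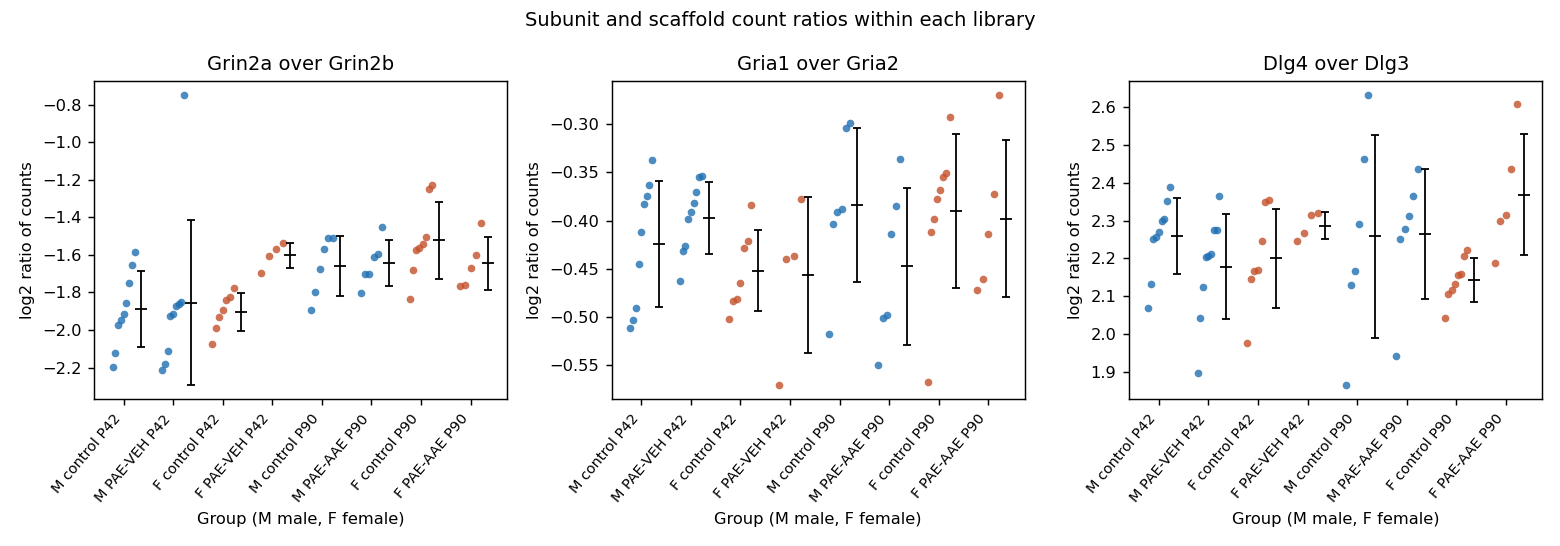
Log2 ratio of counts within each library for Grin2a over Grin2b, Gria1 over Gria2 and Dlg4 over Dlg3 in the 8 groups (blue males, red females, points sorted by value), with the mean and SD beside them in black. Grin2a over Grin2b lies between -1.69 and -1.54 in PAE-VEH females at P42 and between -2.07 and -1.78 in their controls.

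How the members varied among libraries of the same group was related to the makeup of the tissue. Each gene's log2 CPM and 4 marker scores were taken relative to their group means over the 54 libraries, and the 33 genes and 3 ratios were each related to each score. Every relation was tested by 100000 permutations within groups, and p-values were adjusted over all of these relations. These relations were chosen after the levels had been seen. Genes and scores share the library, its depth and its scaling. No other genes were related to these scores. The counts below therefore have no share of all genes beside them and are not read as particular to the members.

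With the medium spiny neuron score, 16 members were higher where the score was higher and 7 were lower, at an adjusted p of r under 0.05. Homer1 had the highest r, 0.90 (rho 0.86), followed by Shank3 with 0.87 (rho 0.83), Dlg4 with 0.86 (rho 0.84) and Grm4 with 0.85 (rho 0.80). Dlg2, Grin3b, Grm5, Gria3 and Grin2b followed, with r of 0.80, 0.80, 0.75, 0.73 and 0.72. The permutation p was 1e-05 for r in each of these 9, the smallest the permutations can give, and r stayed between 0.63 and 0.86 without the 2 libraries farthest from the median score. For rho the permutation p was also 1e-05 in these 9, and the adjusted values were 7.2e-05 for r and 9e-05 for rho.

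The members that were low where the score was high were Grm8 (r -0.82, rho -0.76), Grik1 (-0.78, -0.76), Grin3a (-0.74, -0.67), Grin2d (-0.69, -0.59), Grik4 (-0.56, -0.52), Shank1 (-0.37, -0.40) and Homer2 (-0.37, -0.40). The permutation p of r was 1e-05 for the first 4, with an adjusted p of 7.2e-05. It was 0.00015, 0.0066 and 0.018 for the others, with adjusted p of 0.00065, 0.018 and 0.043, while the adjusted p of rho was at most 0.018 over all 23. Without the 2 farthest libraries r lay between -0.78 and -0.41. Grm8, Grik1 and Grin2d are also among the 4 members with the largest spread within groups.

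The septal and pallidal score showed the reverse order for several of these genes. Grin2d (r 0.78, rho 0.73), Grin3a (0.71, 0.67), Grik1 (0.66, 0.66), Grm8 (0.55, 0.53) and Grik4 (0.40, 0.36) were high where it was high, and 13 members were low there, led by Homer1 (-0.67, -0.57) and Gria3 (-0.66, -0.60). The permutation p of r ran from 1e-05 to 0.016 over these 18 members, with adjusted p up to 0.037 for r and 0.087 for rho, and without the 2 farthest libraries r was 0.74 for Grin2d and -0.60 for Homer1. Its 6 marker genes include none of the 33 members.

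With the cortical excitatory score 6 members were higher and 1 lower. Shank1 had an r of 0.62 (rho 0.54), Grin2a 0.61 (0.57), Grik5 0.53 (0.52), Gria3 0.53 (0.48), Grm2 0.45 (0.36) and Dlg3 0.40 (0.30), while Grin2d had -0.37 (-0.33). The permutation p of r ran from 3e-05 to 0.014, with adjusted p up to 0.033 for r and 0.083 for rho. Without male PAE-VEH replicate 6 and female PAE-VEH replicate 4 at P42, the 2 libraries farthest from the median score, r was 0.49 for Shank1 and 0.57 for Grin2a. With the astrocyte score 8 members were lower and 0 higher, led by Gria2 (r -0.62, rho -0.61), Gria1 (-0.57, -0.62) and Grin1 (-0.55, -0.55), with permutation p of r from 3e-05 to 0.0034 and adjusted p up to 0.0095 for r and 0.026 for rho.

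**Figure D5:**
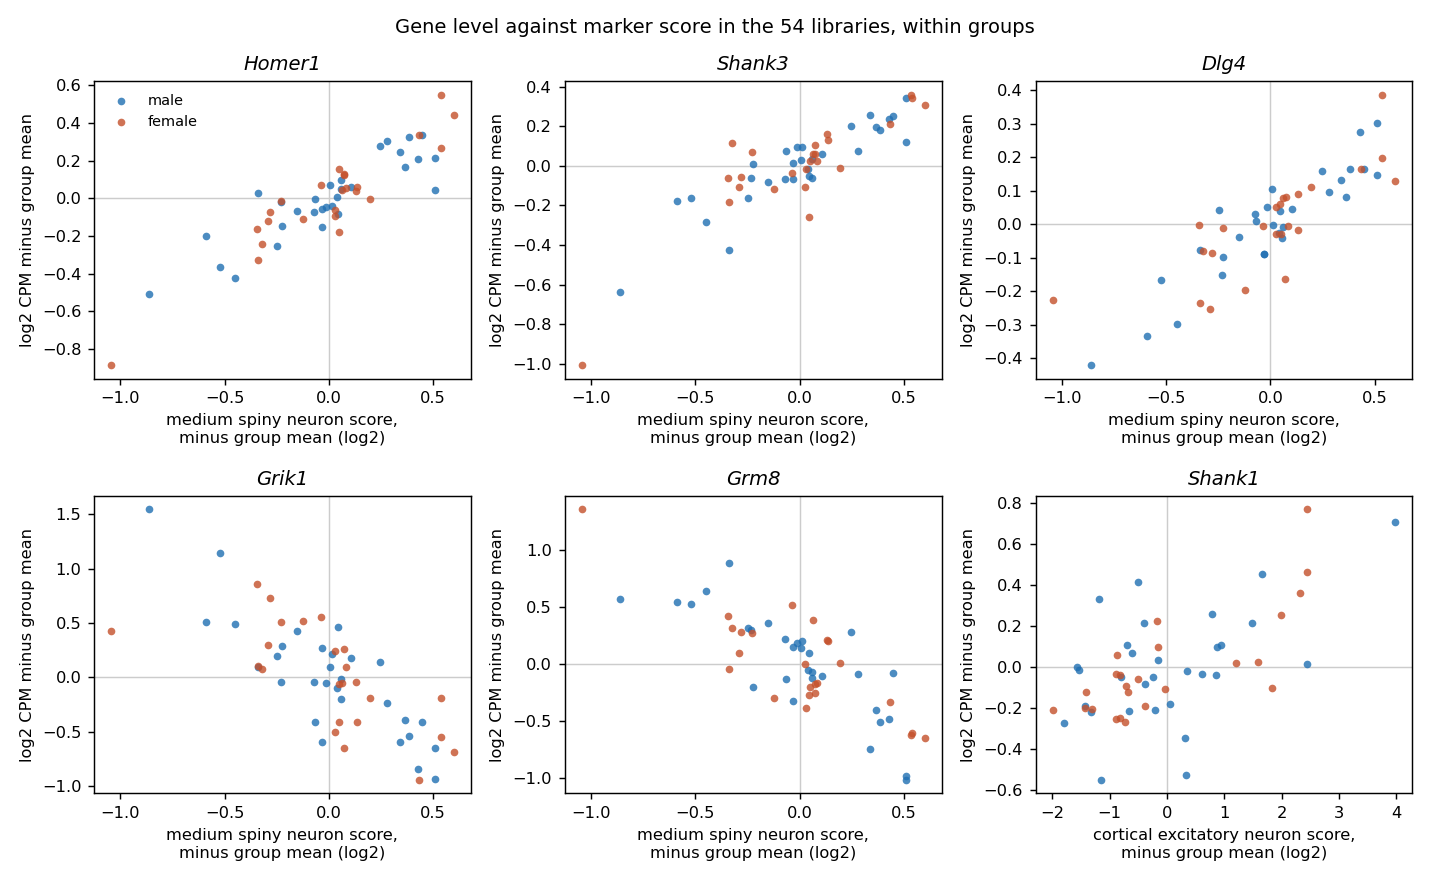
Log2 CPM of 6 genes against a marker list score in the 54 libraries, both minus the mean of their group, with 1 point per library (blue males, red females); the score is that of medium spiny neurons in 5 panels and of cortical excitatory neurons in the panel of Shank1. Homer1 (r 0.90), Shank3 (0.87) and Dlg4 (0.86) increase with the score, and Grik1 (-0.78) and Grm8 (-0.82) decrease.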

How the data were processed

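Bulk RNA of 54 nucleus accumbens libraries was measured. Per the labels' protocols, RNA came from an extraction for high-lipid tissue, random hexamers primed the cDNA, and library strand was not kept, which leaves reads of overlapping antisense genes mixed. The deposited table holds raw read counts and FPKM values per gene and library, both made by the authors. The submitters' processing notes name fastp and HISAT2 2.0.5, while the counter, annotation and build were not given in the sources used here. The start and end of all 33 genes in the table were identical to RefSeq GRCr8.

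Counts were used for all tests and FPKM for levels between genes. Rows without a gene name, 720 in all, took 0.271% to 0.412% of a library's counts and were left out. Titles set the groups, and replicates were numbered in accession order, so the numbers pair nothing. The labels give 1 batch date for all and do not say that libraries are separate animals, so p-values measure only the spread between these libraries, which may be technical. No 2 libraries of a group were identical or agreed within sampling noise.

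edgeR 4.0.16 in R 4.3.3 was fitted to all genes (TMM, filterByExpr by group, quasi-likelihood F test, Benjamini-Hochberg threshold 0.05), in 3 fits of 29 adolescent, 25 adult and 30 control libraries, which gave 14 comparisons. The fitting steps were tested on simulated data. Ratios used log2 of counts plus 0.5. Marker scores are means of log2 CPM centred per gene, and 67 of 68 markers were matched. For relations with these scores 0.1 was added to CPM before taking log2.

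All members are given by level, those past the threshold or the 3 with the smallest p in a comparison by difference, and of each pathway list those past the threshold or the 1 with the smallest p, except for 1 gene that is not reported here. Members and lists were chosen with earlier results of these data known. Alternatives were relative log expression size factors, no filter, DESeq2 1.42.0, voom with quality weights (limma 3.58.1), 1 fit of all 54 libraries, leaving out libraries against their sex label or outlying ones, marker scores as covariates, and leaving out each library in turn.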

Additional observations from a re-analysis of the deposited data

Results flagged for a closer look

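In each of the 8 groups the highest and the lowest library of each of the 33 genes were checked for a gap to the next library that is large for the size of the group. Of 264 such sets, 27 (10.2%) held a library that stood apart. The limit is set for about 1 in 20 sets of normally distributed, independent values. Genes of 1 library are not independent, and female PAE-AAE replicate 3 at P90 held 5 of the 27 flagged values. The distribution of CPM was not checked, so 10.2% is not read as more than chance gives. Values are CPM, and no explanation of them was tested.

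Shank1, the scaffold related above to the cortical excitatory score, stood apart in 5 groups, each time as the highest. It reached 526.1 CPM in male control replicate 1 at P42, 582 CPM in male PAE-VEH replicate 6 at P42 and 586 CPM in female PAE-VEH replicate 4 at P42. At P90 it reached 611 CPM in female control replicate 2 and 616 CPM in female PAE-AAE replicate 3. These 5 libraries have cortical excitatory scores of 2.03, 3.54, 2.63, 2.78 and 2.59. A high score did not always go with a Shank1 value that stood apart. Male control replicate 1 at P90 had a score of 2.30 with Shank1 at 380 CPM. Female control replicate 6 at P90 had 2.17 with 411 CPM.

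Female PAE-AAE replicate 3 at P90 also held the highest Grin2c of its group (102.4 CPM) and Grm2 (5.46 CPM), and the lowest Gria1 (461 CPM) and Grm5 (459 CPM). Male PAE-VEH replicate 6 at P42 held the highest Grm2 (4.66 CPM) and the lowest Gria4 (106.9 CPM) and Grik2 (48.7 CPM). Female control replicate 2 at P42 held the highest Grin2b (836 CPM), Grin3b (14.1 CPM) and Homer1 (238 CPM), 3 genes related above to the medium spiny neuron score. Male PAE-AAE replicate 3 at P90 held the highest Grik1 (49.96 CPM) and Grin3a (71.4 CPM) and the lowest Shank3 (298 CPM).

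Female PAE-VEH replicate 1 at P42 held the highest Gria1 (624.6 CPM) and Grik2 (98.9 CPM) of its 4 libraries. Male PAE-VEH replicate 3 at P42 held the highest Grik1 (36.5 CPM) and the lowest Grid1 (85.3 CPM). The lowest Grid1 of PAE-AAE females at P90 was that of replicate 4 (79.5 CPM). The highest Grm2 of control females at P42 was that of replicate 7 (4.73 CPM), and the highest Grm8 of control females at P90 that of replicate 1 (24.2 CPM). Among control males at P90 the highest Gria3 was that of replicate 1 (271 CPM) and the highest Homer2 that of replicate 2 (65.96 CPM).

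Grm7 differed between the ages in opposite directions in the controls of each sex, and neither difference passed. All 6 adult males lay below the adolescent male median, and all 8 adult females lay above the adolescent female median. The female difference exceeded the male one by 0.39 on the log2 scale, with an edgeR adjusted p of 0.47.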

How the results depend on the processing

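The counts of members past the threshold moved under several alternatives. Shares of all genes for DESeq2 and voom stand with each comparison above. No such share is given here for the other settings, so their counts are not read against all genes. In PAE-VEH females at P42 the count was 1 with DESeq2 and 1 with voom in place of 0, and for the female minus male effect at P42 it was 2 with DESeq2, 1 with voom and 0 to 1 without 1 library. In the age comparison of control males it was 5 with DESeq2 (beside 6.53% of the genes it gave an adjusted p) in place of 2, 0 with the neighbouring tissue scores and 0 with the cell type scores as covariates, and 1 to 3 without 1 library. In control females it was 1 with voom (beside 1.03% of all genes) and 2 (Grik4 and Dlg1) with the cell type scores. For the mean of the sexes it was 1 in place of 3 without the filter, without the libraries against their sex label and with the neighbouring tissue scores, 0 with the cell type scores, and 1 to 4 without 1 library. Grik2 reversed in the adult female minus male effect, to 0.0082 with the neighbouring tissue scores. The ratio of Grin2a to Grin2b in PAE-VEH females lay between 0.2805 and 0.3326 without 1 exposed library, which cannot pass at that size. Apart from the smaller groups of that ratio, the cause of these changes was not tested. Counts in the other comparisons kept their value under the settings run. No paired analysis was possible because the labels give libraries no shared replicate numbers across groups. The least counted member, Grm2, had at least 39 reads in every library.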
